A study of Mus musculus with 4 samples.

Results

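Imprinted genes are expressed mainly from the copy inherited from the mother or mainly from the copy inherited from the father. A set of 40 mouse imprinted genes was read out in TT2 embryonic stem cells depleted of Hnrnpk, the gene for the RNA- and DNA-binding protein hnRNP K. The set was chosen by gene symbol, and all 40 symbols were found among the 22138 genes of the expression table. By general knowledge of mouse imprinting, 22 of them are expressed from the paternal copy, 17 from the maternal copy, and Gnas from either copy depending on its promoter. They lie in 20 imprinted clusters on 9 chromosomes.

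The series is titled as a study of how hnRNP K works with SETDB1, a histone H3 lysine 9 methyltransferase, in silencing transcription. The labels give TT2 as a female line from C57BL/6xCBA embryos; it was kept feeder-free in medium with serum and the cytokine LIF, which holds embryonic stem cells undifferentiated. RNA was sequenced from cells given control siRNA (2 libraries) or Hnrnpk siRNA (2 libraries), transfected at 100 nM and again at 50 nM 24 hours later, and harvested about 72 hours after the second transfection. The replicates are called biological in the design text, the groups differ in nothing else the labels record, and results refer to this line alone.

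Imprints are laid down as DNA methylation in egg or sperm at short control regions. After fertilization, when most DNA methylation is erased, they are held in place by the zinc finger protein ZFP57, which binds the methylated copy and brings in TRIM28 and, with it, SETDB1, while DNMT1 and UHRF1 copy the methylation at each cell division. Many imprinted genes control the growth of the fetus and placenta: paternally expressed genes such as Igf2 tend to promote growth and maternally expressed genes such as Igf2r, Cdkn1c, Phlda2 and Grb10 tend to restrain it. RPKM, the unit used here, is reads scaled to transcript length and to all mapped reads, and it sums both parental copies. An RPKM value therefore gives the level of a gene and says nothing about which copy was read.

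Hnrnpk, the targeted gene, measured 236 and 226 RPKM with control siRNA and 68.0 and 70.5 RPKM with Hnrnpk siRNA. It fell by 1.73 on the log2 scale (SE 0.0629, limma adjusted p = 6.59e-08), in the direction of the labels. Embryonic stem cell markers were abundant in all 4 libraries: the 10 genes listed summed to 3935 to 5022 RPKM, a sum in which Dppa5a, Utf1 and Zfp42 weighed most. They did not move as one: Nanog and Dppa5a rose (log2 change 0.82 and 0.83), Sox2, Tdgf1, Fgf4 and Utf1 fell (-0.53, -0.24, -0.30 and -0.29), and Pou5f1, Zfp42, Esrrb and Klf4 were not called. The Utf1 call was lost with GC trends removed (-0.063, limma adjusted p = 0.521) and without the filter (limma adjusted p = 0.0659), and that of Tdgf1 without Hnrnpk siRNA replicate 1 (-0.19, limma adjusted p = 0.0620). The part of these shifts in the changes of imprinted genes was not tested. Libraries differed modestly in depth: relative to control replicate 1, the steps between low values gave 0.982 for control replicate 2 and 0.891 and 0.882 for the Hnrnpk siRNA libraries. Changes are given as log2 of (RPKM + 0.5), Hnrnpk siRNA minus control siRNA, which understates the change of low genes. A gene was tested if its mean over the 4 libraries was at least 0.5 RPKM and called at a limma adjusted p under 0.05 over the 12486 genes tested. An exact permutation test of 2 libraries against 2 cannot go below p = 0.333, so each call rests on the spread that limma pools across genes. Markers of other cell types moved as well. The 8 trophectoderm markers summed to 30.6 and 36.1 RPKM in control libraries and 68.7 and 73.3 RPKM after Hnrnpk siRNA, and the 8 primitive endoderm markers to 12.03 and 11.83 against 53.1 and 55.1 RPKM. The 6 two-cell stage markers measured summed to 0.787 and 0.710 against 39.4 and 46.3 RPKM, the 8 fibroblast markers to 10.7 and 9.08 against 5.22 and 5.46 RPKM, and the 5 neuronal markers to 119 and 129 against 99.1 and 109 RPKM. Krt8 and Krt18 weighed most among trophectoderm markers, where Elf5 lay below its controls. Thy1 and Col1a1 weighed most among fibroblast markers, where Lum (not tested) and Pdgfrb (not called) lay above their controls. Tubb3 weighed most among neuronal markers, where Neurod1 rose (log2 change 0.22, limma adjusted p = 0.0385). No marker was at 0 in all 4 libraries. The part of such cells was not tested either, and in bulk RNA fewer cells of a type and less RNA per cell cannot be told apart.

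Of the 40 imprinted genes, 35 were tested and 5 were too low: Zim1, Asb4, Kcnq1, Dcn and Rtl1. After Hnrnpk siRNA 13 rose, 14 fell and 8 were not called. Among all genes tested, 32.2% were called higher, 35.0% lower and 67.2% in either direction, so the share called among the imprinted genes (77.1%) stood near that background. Dio3, counted among the 13 that rose, passed the filter only through its level after Hnrnpk siRNA. That selection favoured a rise, so its call is not used as support. The libraries of the groups did not overlap for 32 of the 35 members, against 84.7% of all genes tested. The median log2 change of the tested members was 0.085, beside -0.015 over all genes tested, and the median size of change was 0.48 against 0.32. A change of at least 2-fold on the log2 scale used was called for 3 members, Igf2 and Cd81, which rose, and Nnat, which fell; over all genes 8.51% were so called.

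Both directions were found among genes of either parental copy. Of 21 tested paternally expressed genes 8 rose and 9 fell, with a median log2 change of 0.085. Of 13 tested maternally expressed genes 4 rose and 5 fell, with a median of 0.070. Gnas rose. A difference between these classes was not tested. Of the 8 tested members whose imprinting is reported only in certain tissues, 2 rose and 3 fell. By chromosome, 6 rose and 7 fell of 16 tested on chromosome 7, 1 rose and 3 fell on chromosome 11, 2 rose and 1 fell on chromosome 2, and on chromosome 6 none of 5 rose and 3 fell. Summed over all 22 paternally expressed genes, the level was 655 and 741 RPKM in control libraries and 591 and 586 RPKM after Hnrnpk siRNA. Over the 17 maternally expressed genes it was 260 and 249 against 311 and 318 RPKM. These sums rest on few abundant genes, above all Snrpn for the paternal sum and Cd81 and Phlda2 for the maternal one. Snrpn fell from 274 and 308 RPKM to 195 and 207 RPKM. Cd81 went from 81.4 and 63.3 RPKM to 164 and 169 RPKM, a larger rise than that of the whole maternal sum. Phlda2 fell from 81.7 and 91.8 RPKM to 50.4 and 51.6 RPKM. The sums therefore give no direction for either class.

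**Figure D1:**
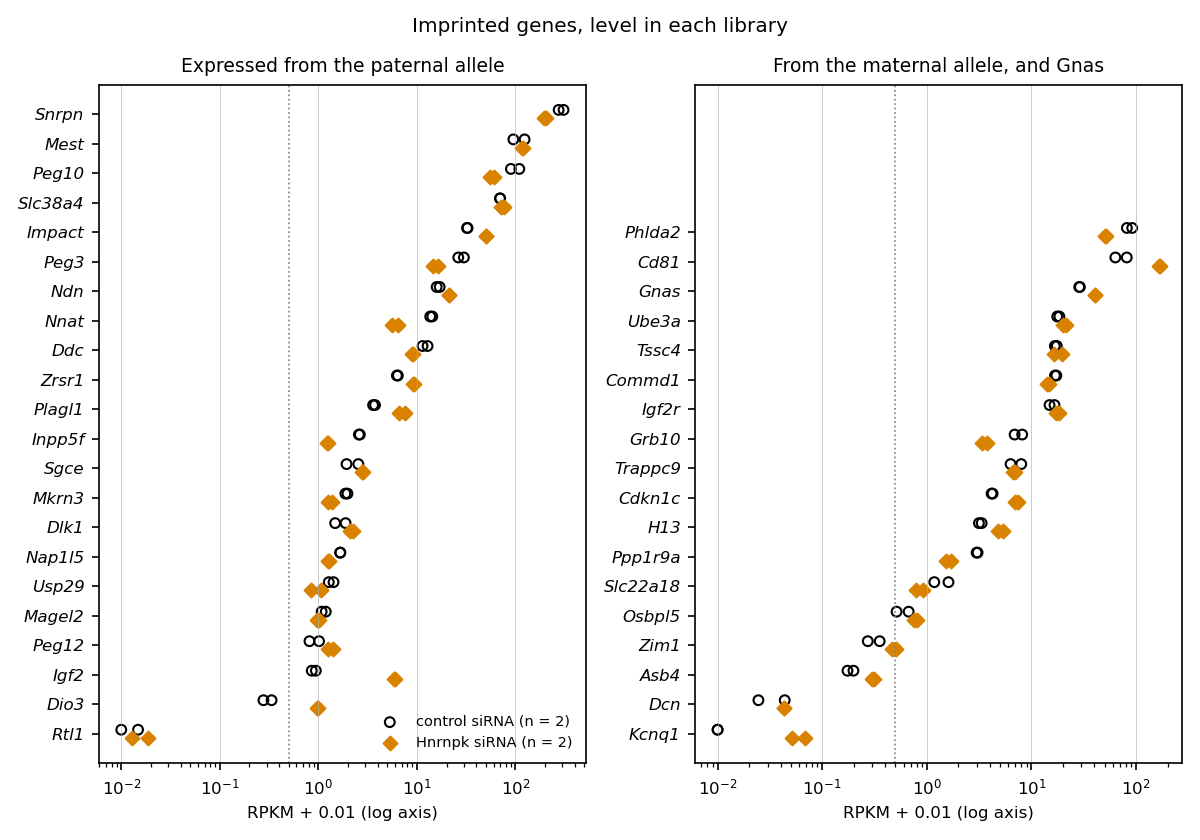
Level of each of the 40 imprinted genes in each library as RPKM + 0.01 on a log axis, by the parental copy expressed; circles are control siRNA, diamonds Hnrnpk siRNA, and the dotted line marks 0.5 RPKM. Levels run from Snrpn at a mean of 291 RPKM in control libraries to Kcnq1, listed at 0 there, and the diamonds of Igf2 lie well to the right of its circles.

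Igf2 had the largest change of the tested members. Igf2 (ENSMUSG00000048583, GRCm38 chromosome 7, 142650766 to 142666816, minus strand, protein coding) encodes the fetal growth factor IGF2. It was at 0.847 and 0.934 RPKM in control libraries and at 5.82 and 5.93 RPKM after Hnrnpk siRNA. Both Hnrnpk siRNA libraries lay far above both control libraries, and Igf2 rose 6.60-fold in mean RPKM (log2 change 2.20, SE 0.0865, limma adjusted p = 9.99e-08). In GENCODE 3596 bases of its exons are shared on the same strand with Gm49394, a gene not analysed here, so how reads were divided between them is unknown. Its neighbour Ins2 was listed at 0 in all 4 libraries. H19, the noncoding partner of Igf2, and Airn, the antisense RNA of Igf2r, were not analysed here.

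Igf2r (ENSMUSG00000023830, chromosome 17, 12682406 to 12769664, minus strand) encodes the receptor that carries IGF2 to lysosomes for breakdown. Its levels were 16.6 and 14.9 RPKM in control libraries and 18.2 and 17.1 RPKM after Hnrnpk siRNA. The groups did not overlap, but Igf2r was not called: its log2 change was 0.16 with an SE of 0.0757 and a limma adjusted p of 0.0792. Without control replicate 1 the Igf2r change was 0.24, and without control replicate 2 it was 0.089. With a replicate block the limma adjusted p was 0.0479. Grb10 (ENSMUSG00000020176, chromosome 11, 11930508 to 12038683, minus strand) encodes an adaptor that dampens insulin and IGF receptor signalling. It was at 6.89 and 8.14 RPKM in control libraries and at 3.72 and 3.37 RPKM after Hnrnpk siRNA. Grb10 fell 2.12-fold (log2 change -0.98, SE 0.0965, limma adjusted p = 1.77e-05), and both Hnrnpk siRNA libraries were below both controls. Its neighbour Ddc, which encodes the decarboxylase that makes dopamine and serotonin, fell too, from 11.4 and 12.8 RPKM to 9.02 and 8.92 RPKM (log2 change -0.41, SE 0.0780, limma adjusted p = 0.00115).

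The Kcnq1 domain of distal chromosome 7 holds maternally expressed genes under 1 imprinting control region, and its members went both ways. Of 6 tested members, 2 rose, 2 fell and 2 were not called. Cd81 (ENSMUSG00000037706, chromosome 7, 143052739 to 143067934, plus strand), a tetraspanin of the cell surface whose imprinting is reported in placenta, was at 81.4 and 63.3 RPKM in control libraries and at 164 and 169 RPKM after Hnrnpk siRNA. The groups stood wide apart and Cd81 rose 2.30-fold (log2 change 1.21, SE 0.102, limma adjusted p = 7.22e-06). Cdkn1c (ENSMUSG00000037664, 143458339 to 143461050, minus strand), the cyclin-dependent kinase inhibitor p57, was at 4.15 and 4.24 RPKM against 7.001 and 7.386 RPKM. It rose 1.71-fold (log2 change 0.71, SE 0.0776, limma adjusted p = 3.35e-05), with no overlap of the groups.

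Another 2 members of the domain, Slc22a18 and Phlda2, fell. Phlda2 (ENSMUSG00000010760, 143501545 to 143503150, minus strand), a small pleckstrin-homology protein that limits placental growth, was at 81.7 and 91.8 RPKM in control libraries and at 50.4 and 51.6 RPKM after Hnrnpk siRNA. Phlda2 fell 1.70-fold (log2 change -0.76, SE 0.0710, limma adjusted p = 1.33e-05), and the groups did not overlap. Slc22a18, an organic cation transporter-like gene next to Phlda2, fell from 1.60 and 1.17 RPKM to 0.917 and 0.774 RPKM (log2 change -0.48, SE 0.124, limma adjusted p = 0.00671). That call was lost without Hnrnpk siRNA replicate 2 (log2 change -0.40, limma adjusted p = 0.0648), and the log2 change was -0.31 without control replicate 1. Tssc4 was at 17.5 and 16.7 against 16.5 and 19.5 RPKM and its groups overlapped (log2 change 0.070, limma adjusted p = 0.480); with GC trends removed it was 0.21 (limma adjusted p = 0.0371), and without Hnrnpk siRNA replicate 2 it was -0.046 (limma adjusted p = 0.708). Osbpl5, an oxysterol-binding protein gene, was at 0.660 and 0.504 against 0.752 and 0.800 RPKM, a log2 change of 0.24 that was not called (limma adjusted p = 0.0680). It was called without control replicate 1 (0.35, limma adjusted p = 0.00455), with GC trends removed (0.33, limma adjusted p = 0.0162) and under quantile normalization (0.28, limma adjusted p = 0.0212). Without control replicate 2 it was 0.14 (limma adjusted p = 0.204). Kcnq1, a potassium channel gene, was listed at 0 in both control libraries and at 0.0418 and 0.0584 RPKM after Hnrnpk siRNA. The antisense transcript Kcnq1ot1 that silences the paternal side of this domain was not analysed here.

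**Figure D2:**
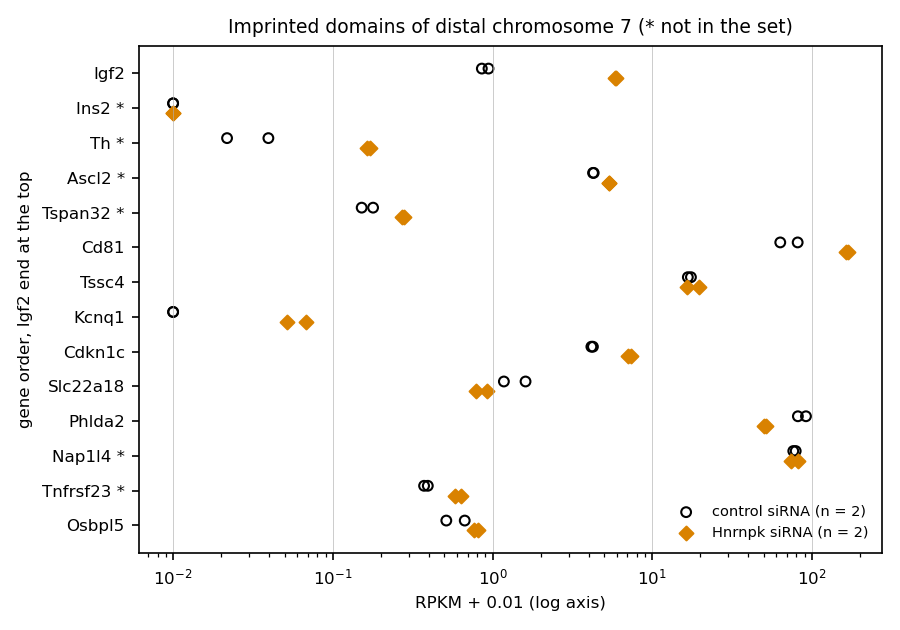
Levels along the Igf2 and Kcnq1 domains of distal chromosome 7, in gene order with the Igf2 end at the top, as RPKM + 0.01 on a log axis; circles are control siRNA and diamonds Hnrnpk siRNA libraries (n = 2 each), and asterisks mark neighbours outside the set of 40. Igf2, Cd81 and Cdkn1c lie to the right of their controls, as do Th, Ascl2, Tspan32, Kcnq1, Tnfrsf23 and Osbpl5. Of these, Th, Tspan32, Kcnq1 and Tnfrsf23 were too low to test and Osbpl5 was not called. Only Slc22a18 and Phlda2 lie to the left, with Tssc4 and Nap1l4 overlapping.

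The Snrpn-Ube3a cluster of central chromosome 7 corresponds to the human region of Prader-Willi and Angelman syndromes. Of its 6 members 3 rose, 2 fell and 1 was not called. Snrpn (ENSMUSG00000000948, chromosome 7, 59974149 to 60005064, minus strand), which encodes the spliceosomal protein SmN, was the most abundant imprinted gene, at 274 and 308 RPKM in control libraries and 195 and 207 RPKM after Hnrnpk siRNA. It fell 1.45-fold with no overlap of the groups (log2 change -0.53, SE 0.0760, limma adjusted p = 1.92e-04). With GC trends removed the log2 change of Snrpn was -0.81. Snrpn shares exonic bases with Snurf, the other coding gene of its transcript, which was not analysed here.

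The intronless genes of the cluster did not move together. Mkrn3, a makorin-type RING finger gene, fell from 1.97 and 1.87 RPKM to 1.36 and 1.24 RPKM (log2 change -0.43, SE 0.0914, limma adjusted p = 0.00238). Ndn, which encodes the MAGE-family protein necdin, rose from 17.02 and 15.87 RPKM to 20.9 and 21.3 RPKM (log2 change 0.35, SE 0.0674, limma adjusted p = 0.00123). Magel2, another MAGE-family gene, was at 1.07 and 1.18 against 0.997 and 0.968 RPKM and was not called (log2 change -0.13, limma adjusted p = 0.239). Necdin and MAGEL2 genes lie next to each other, yet only Ndn passed the test; the difference between these neighbours was itself not tested. Peg12, a gene of the FRAT family of Wnt pathway proteins, rose from 1.01 and 0.802 RPKM to 1.25 and 1.40 RPKM (log2 change 0.38, SE 0.106, limma adjusted p = 0.00986), a call lost without Hnrnpk siRNA replicate 2 (0.32, limma adjusted p = 0.105).

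Ube3a, a ubiquitin ligase gene imprinted in neurons, was at 17.6 and 18.5 RPKM in control libraries and at 21.2 and 19.8 RPKM after Hnrnpk siRNA. Its small rise (log2 change 0.18, SE 0.0687, limma adjusted p = 0.0400) was lost in 6 of 12 alternatives. Without control replicate 1 it was 0.15 (limma adjusted p = 0.123), without Hnrnpk siRNA replicate 1 it was 0.13 (limma adjusted p = 0.254), and without Hnrnpk siRNA replicate 2 it was 0.23 (limma adjusted p = 0.0573). Removing GC trends turned the log2 change to -0.027 (limma adjusted p = 0.693), so the direction of Ube3a depends on that choice.

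Peg3 and Usp29, at proximal chromosome 7, are paternally expressed and are transcribed away from each other from RefSeq starts 163 bases apart. Peg3 (ENSMUSG00000002265, 6703892 to 6730431, minus strand), a large zinc finger protein, was at 26.3 and 30.0 RPKM in control libraries and at 16.5 and 14.7 RPKM after Hnrnpk siRNA. It fell 1.81-fold with no overlap of the groups (log2 change -0.83, SE 0.0844, limma adjusted p = 2.15e-05). Usp29, a ubiquitin-specific protease gene, was far lower, at 1.42 and 1.27 against 1.06 and 0.842 RPKM. Usp29 fell as well (log2 change -0.35, SE 0.107, limma adjusted p = 0.0164), but the call was lost without Hnrnpk siRNA replicate 2 (-0.24, limma adjusted p = 0.201) and without the filter on low values (limma adjusted p = 0.0546). The maternally expressed neighbour Zim1 was at 0.262 and 0.344 against 0.453 and 0.499 RPKM, below the level for testing, with both Hnrnpk siRNA libraries above the controls. In GENCODE 2582 exonic bases of Usp29 are also exonic in Zim3 on the other strand, and without stated strandedness such reads cannot be told apart.

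The bases between the starts of Peg3 and Usp29 are shown because both genes that share them fell. They are RefSeq sequence of GRCm38.p6, chr7:6730420-6730582, printed 5′ to 3′ on the plus strand, the strand of Usp29, with the 5 CpG dinucleotides in capitals.
Peg3-Usp29: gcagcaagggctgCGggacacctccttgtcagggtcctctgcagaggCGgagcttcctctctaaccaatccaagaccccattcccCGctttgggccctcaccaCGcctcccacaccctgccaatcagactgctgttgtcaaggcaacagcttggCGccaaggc

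On proximal chromosome 6, Peg10 and Sgce start next to each other on opposite strands and are both paternally expressed. Peg10 (ENSMUSG00000092035, 4747306 to 4760517, plus strand), a retrotransposon-derived gene needed for the placenta, was at 90.0 and 109 RPKM in control libraries and at 61.2 and 55.7 RPKM after Hnrnpk siRNA. It fell 1.71-fold with no overlap of the groups (log2 change -0.76, SE 0.0931, limma adjusted p = 7.06e-05). Sgce, which encodes epsilon-sarcoglycan, was at 2.54 and 1.92 against 2.82 and 2.76 RPKM and was not called (log2 change 0.28, SE 0.112, limma adjusted p = 0.0514). Sgce was called in 4 of 12 alternatives: without control replicate 1 (0.44, limma adjusted p = 5.28e-04), quantile normalization (0.38, limma adjusted p = 0.00698), median-ratio scaling (0.29, limma adjusted p = 0.0342) and the replicate block (limma adjusted p = 0.0232). Without control replicate 2 it was 0.11 (limma adjusted p = 0.258). Ppp1r9a, the actin-binding protein neurabin, is imprinted mainly in placenta and fell from 2.98 and 3.04 RPKM to 1.68 and 1.53 RPKM (log2 change -0.74, SE 0.0887, limma adjusted p = 6.24e-05). Asb4 was at 0.164 and 0.189 against 0.304 and 0.289 RPKM and was not tested.

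Over the 7 clusters with at least 2 tested members, the called members went in both directions in 3 (Kcnq1, Snrpn-Ube3a and Zrsr1-Commd1). They only fell in 3 (Peg3, Peg10-Sgce and Grb10-Ddc), and none were lower in Dlk1-Dio3. There, Dio3 was tested only because of its level after Hnrnpk siRNA, and the call of Dlk1 was lost in 4 alternatives. No direction is drawn for that cluster. The sorting of other clusters also depends on the settings: Usp29 and Commd1 lost their calls in some alternatives, and Sgce was called higher in some.

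**Figure D3:**
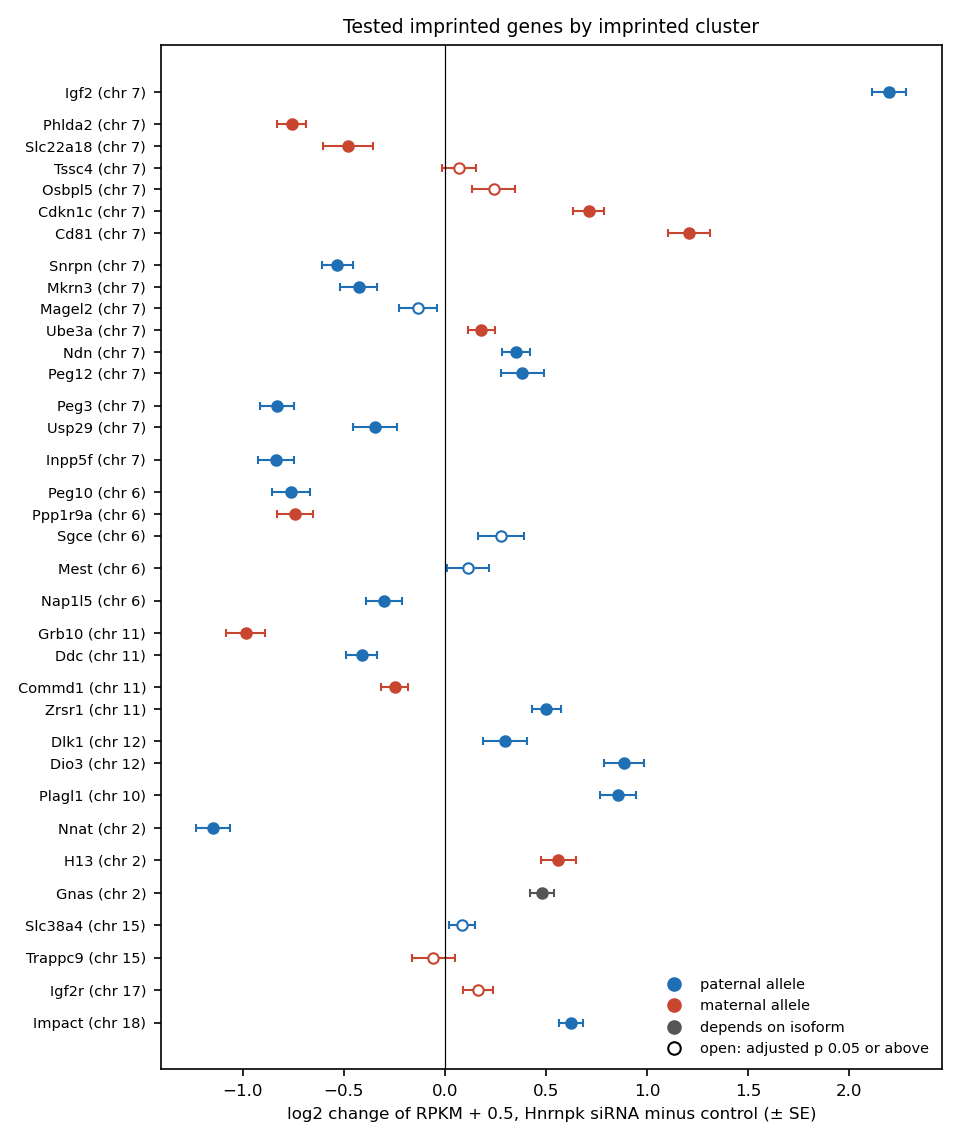
Change of each of the 35 tested imprinted genes on the log2(RPKM + 0.5) scale, Hnrnpk siRNA minus control siRNA, with bars for the SE from limma; genes of a cluster stand together, colour gives the parental copy expressed, and open points were not called. Filled points lie on both sides of 0 for both colours, from Nnat at -1.15 to Igf2 at 2.20.

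In the Dlk1-Dio3 cluster of chromosome 12 the paternally expressed coding genes were low. Dlk1, which encodes a Notch-ligand-like growth regulator, was at 1.47 and 1.88 RPKM in control libraries and at 2.10 and 2.22 RPKM after Hnrnpk siRNA. Its rise (log2 change 0.30, SE 0.107, limma adjusted p = 0.0327) was lost without control replicate 1 (0.16, limma adjusted p = 0.128), without Hnrnpk siRNA replicate 1 (0.33, limma adjusted p = 0.0984), without Hnrnpk siRNA replicate 2 (0.27, limma adjusted p = 0.178) and without the filter (limma adjusted p = 0.108). Dio3, the deiodinase that inactivates thyroid hormone, was at 0.325 and 0.267 against 0.957 and 0.985 RPKM. Dio3 rose 3.28-fold in mean RPKM (log2 change 0.89, SE 0.0980, limma adjusted p = 3.67e-05), or by a log2 change of 1.44 with 0.1 RPKM added in place of 0.5. Rtl1, a retrotransposon-derived gene of placenta, did not exceed 0.00862 RPKM in any library. The maternally expressed noncoding RNA Meg3 was not analysed here.

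Several imprinted genes lie inside the span of a host gene on the opposite strand, and member and host could be compared. Nnat (ENSMUSG00000067786, chromosome 2, 157560078 to 157562522, plus strand), which encodes the small membrane proteolipid neuronatin, lies within Blcap. It was at 13.6 and 14.3 RPKM in control libraries and at 5.62 and 6.50 RPKM after Hnrnpk siRNA. Nnat had the largest fall in the set, 2.31-fold (log2 change -1.15, SE 0.0840, limma adjusted p = 3.03e-06), and its groups stood wide apart. Its host Blcap rose, from 7.49 and 6.83 RPKM to 10.3 and 10.9 RPKM (log2 change 0.54, SE 0.0783, limma adjusted p = 2.18e-04).

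Zrsr1 and its host Commd1 on chromosome 11 also differed in direction. Zrsr1 (ENSMUSG00000044068, 22972005 to 22976496, plus strand), an intronless relative of a U2 splicing factor gene, rose from 6.398 and 6.257 RPKM to 9.24 and 9.08 RPKM (log2 change 0.50, SE 0.0724, limma adjusted p = 2.08e-04). Commd1, a regulator of copper and NF-kappaB, fell from 17.3 and 16.8 RPKM to 13.96 and 14.57 RPKM (log2 change -0.25, SE 0.0668, limma adjusted p = 0.00855), a call lost without Hnrnpk siRNA replicate 1 (-0.22, limma adjusted p = 0.0744). The 2 genes share 412 exonic bases on opposite strands. Nap1l5, a nucleosome assembly protein-like gene within Herc3 on chromosome 6, fell from 1.67 and 1.65 RPKM to 1.26 and 1.24 RPKM (log2 change -0.30, SE 0.0886, limma adjusted p = 0.0130). The Nap1l5 call was lost under quantile normalization (-0.19, limma adjusted p = 0.0688), without Hnrnpk siRNA replicate 1 (-0.31, limma adjusted p = 0.0899) and without Hnrnpk siRNA replicate 2 (-0.29, limma adjusted p = 0.108).

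Among the remaining paternally expressed genes, Plagl1 (ENSMUSG00000019817, chromosome 10, 13060504 to 13131694, plus strand) encodes a zinc finger transcription factor that regulates other imprinted genes, Igf2 among them. It was at 3.75 and 3.58 RPKM in control libraries and at 7.57 and 6.57 RPKM after Hnrnpk siRNA. Plagl1 rose 1.93-fold (log2 change 0.86, SE 0.0891, limma adjusted p = 2.48e-05), with both Hnrnpk siRNA libraries above both controls. Impact (ENSMUSG00000024423, chromosome 18), an inhibitor of the amino acid sensor GCN2, rose 1.55-fold, from 32.2 and 32.7 RPKM to 50.3 and 50.3 RPKM (log2 change 0.62, SE 0.0599, limma adjusted p = 1.56e-05). Inpp5f, a phosphoinositide phosphatase gene of which a short isoform is imprinted, fell 2.10-fold, from 2.57 and 2.63 RPKM to 1.25 and 1.22 RPKM (log2 change -0.84, SE 0.0869, limma adjusted p = 2.50e-05). Replicates of Impact and Inpp5f were narrow, those of Plagl1 were wider after Hnrnpk siRNA, and none of these 3 genes had overlapping groups.

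Mest, also called Peg1, encodes a hydrolase-like protein of embryonic mesoderm and was among the most abundant members, at 95.3 and 124 RPKM in control libraries and 120 and 115 RPKM after Hnrnpk siRNA. The control libraries spanned both Hnrnpk siRNA libraries, and Mest was not called (log2 change 0.11, SE 0.106, limma adjusted p = 0.361); without control replicate 2 it was 0.30 (limma adjusted p = 0.00538). Without control replicate 1 the Mest change turned to -0.074 (limma adjusted p = 0.460), so its direction depends on 1 library. In GENCODE 912 exonic bases of Mest are also exonic in Copg2 on the other strand. Slc38a4, an amino acid transporter gene, was at 69.9 and 69.8 against 76.3 and 72.0 RPKM and was not called (log2 change 0.085, SE 0.0622, limma adjusted p = 0.252).

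Of the remaining genes, Gnas (ENSMUSG00000027523, chromosome 2, 174284320 to 174346744, plus strand) encodes the stimulatory G protein alpha subunit and several variants from promoters imprinted in opposite ways. It rose from 28.6 and 29.0 RPKM to 40.5 and 40.2 RPKM (log2 change 0.48, SE 0.0605, limma adjusted p = 8.61e-05), and the value does not separate the variants. Exonic bases of Gnas, Ube3a, Cdkn1c and H13 also overlap other annotated transcripts, whose reads cannot be told apart where strand is not recorded. H13, the signal peptide peptidase gene, rose from 3.14 and 3.33 RPKM to 4.74 and 5.29 RPKM (log2 change 0.56, SE 0.0874, limma adjusted p = 3.36e-04). Trappc9, a subunit of a trafficking complex with maternal bias in brain, was at 7.97 and 6.31 against 7.01 and 6.60 RPKM and was not called (log2 change -0.056, limma adjusted p = 0.649), but was without control replicate 2 (-0.21, limma adjusted p = 0.0352). Without control replicate 1 the Trappc9 change turned to 0.10 (limma adjusted p = 0.306). Dcn, a matrix proteoglycan gene that fibroblasts express strongly, did not exceed 0.0338 RPKM in any library.

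**Figure D4:**
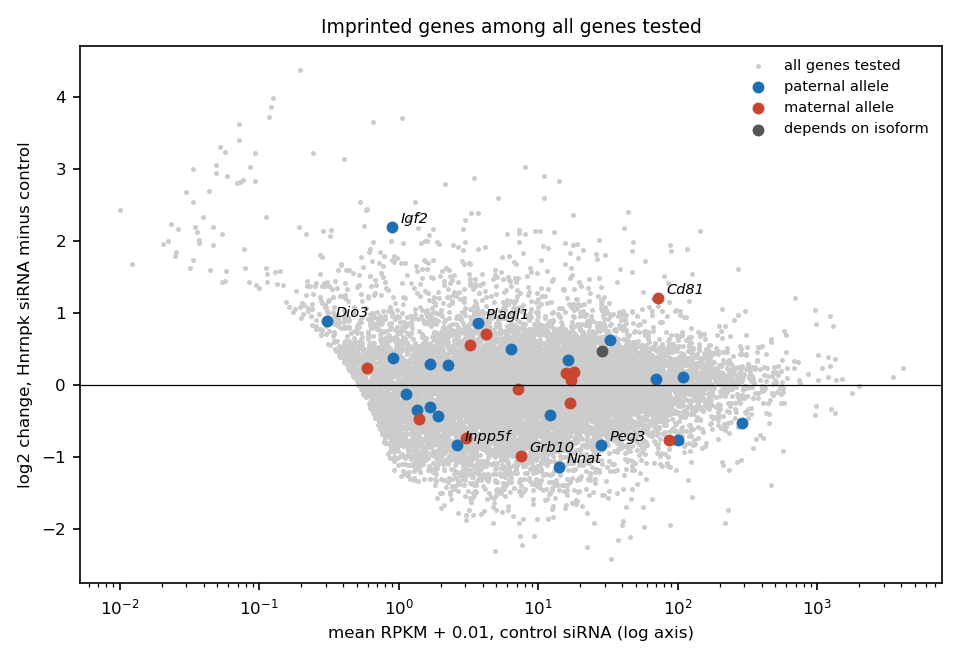
Log2 change (Hnrnpk siRNA minus control siRNA) of each of the 12486 genes tested against its mean RPKM + 0.01 in control libraries on a log axis, with the 35 tested imprinted genes coloured by parental copy. Apart from Igf2, Cd81 and Nnat, the imprinted genes lie within 1 log2 unit of 0, inside the cloud of all genes.

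At promoters, the letters TGCCGC were searched on both strands, since this hexamer is the core that ZFP57 binds when methylated. The windows were the 250 bases before each RefSeq gene start (GRCm38.p6). They were available for 32 members (52 windows, as some genes have several starts). The hexamer was in 6 of the 52 windows (11.5%), belonging to Mest, Nap1l5, Zim1, Plagl1 and Osbpl5, against 8.68% of all 32851 windows. Both Mest windows among the 6 (from 30737800 and 30737803) overlap almost wholly and hold the same matches, so that place is counted more than once. The median number of CpG dinucleotides was 10 in member windows and 6 in all windows. The Plagl1, Nap1l5 and Mest windows are shown because these promoters lie in known germline imprinted regions and hold the hexamer, while the genes rose, fell and were not called. The hexamer or its reverse complement is in capitals, each sequence is 5′ to 3′ on the gene's strand, and a match is not evidence of binding.
Plagl1 (chr10:13090582-13090831, plus strand): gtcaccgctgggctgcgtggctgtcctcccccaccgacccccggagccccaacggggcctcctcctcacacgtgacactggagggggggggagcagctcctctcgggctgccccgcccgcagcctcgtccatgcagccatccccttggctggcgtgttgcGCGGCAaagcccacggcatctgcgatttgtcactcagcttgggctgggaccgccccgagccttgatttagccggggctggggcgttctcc
Nap1l5 (chr6:58907127-58907376, minus strand): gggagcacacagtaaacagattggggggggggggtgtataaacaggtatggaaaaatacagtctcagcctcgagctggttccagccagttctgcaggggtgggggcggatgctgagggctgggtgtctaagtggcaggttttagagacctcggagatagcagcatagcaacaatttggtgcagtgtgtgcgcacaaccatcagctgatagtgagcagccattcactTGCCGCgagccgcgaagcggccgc
Mest (chr6:30737800-30738049, plus strand): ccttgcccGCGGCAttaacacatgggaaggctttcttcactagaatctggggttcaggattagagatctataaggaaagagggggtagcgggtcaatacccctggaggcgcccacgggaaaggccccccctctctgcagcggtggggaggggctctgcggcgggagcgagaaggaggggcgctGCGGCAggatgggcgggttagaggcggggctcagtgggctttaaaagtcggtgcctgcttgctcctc

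The genes that set and keep imprints were read from a list of 28, of which 25 were tested. In that list 4 rose, 12 fell and 9 were not called, with a median log2 change of -0.16 beside -0.015 over all genes tested. The share called, 64%, was near the 67.2% of all genes tested. The de novo methyltransferase genes Dnmt3b (81.6 and 93.5 against 40.8 and 37.8 RPKM) and Dnmt3a (14.6 and 19.1 against 7.63 and 7.58 RPKM) fell, with log2 changes of -1.14 and -1.09 (SE 0.0785 and 0.110). Smchd1, a noncanonical SMC protein that silences some imprinted clusters, fell by 1.04 on the log2 scale, from 21.79 and 20.98 RPKM to 10.8 and 9.50 RPKM. The highest limma adjusted p of these 3 genes was 2.09e-05, and none of their groups overlapped.

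Dnmt1, Uhrf1 and Dppa3 fell as well. Dnmt1 went from 108 and 106 RPKM to 70.1 and 66.4 RPKM, Uhrf1 from 124 and 126 RPKM to 83.3 and 79.8 RPKM, and Dppa3, a factor that shields imprints in the egg and zygote, from 74.2 and 70.5 RPKM to 39.2 and 42.2 RPKM. Their log2 changes were -0.65, -0.61 and -0.82, with limma adjusted p-values of 1.62e-05, 2.01e-05 and 5.16e-06. The H3K9 methyltransferase gene Ehmt2 fell by 0.65 on the log2 scale (limma adjusted p = 1.63e-05). Zfp445, another zinc finger protein that guards imprints, fell by 0.37 on the log2 scale (limma adjusted p = 0.00252). Of the ZFP57 pathway, Zfp57 rose from 78.3 and 80.3 RPKM to 99.3 and 103 RPKM (log2 change 0.35, SE 0.0610, limma adjusted p = 7.20e-04). Trim28 was at 968 and 1053 against 1038 and 1089 RPKM, with overlapping groups, and was not called (log2 change 0.074, SE 0.0821, limma adjusted p = 0.445), except with GC trends removed (0.22, limma adjusted p = 0.0499). Setdb1 was at 35.2 and 36.1 against 33.3 and 32.4 RPKM and was not called either (log2 change -0.12, SE 0.0615, limma adjusted p = 0.114).

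Dnmt3l, the catalytically inactive partner of the de novo enzymes, rose from 95.8 and 111 RPKM to 208 and 198 RPKM (log2 change 0.97, SE 0.0790, limma adjusted p = 5.57e-06). Ctcf, the insulator protein that binds the unmethylated maternal H19-Igf2 control region, rose from 54.1 and 58.1 RPKM to 76.4 and 73.6 RPKM (log2 change 0.42, SE 0.0649, limma adjusted p = 3.38e-04). These are transcript levels; DNA methylation and protein were not measured.

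**Figure D5:**
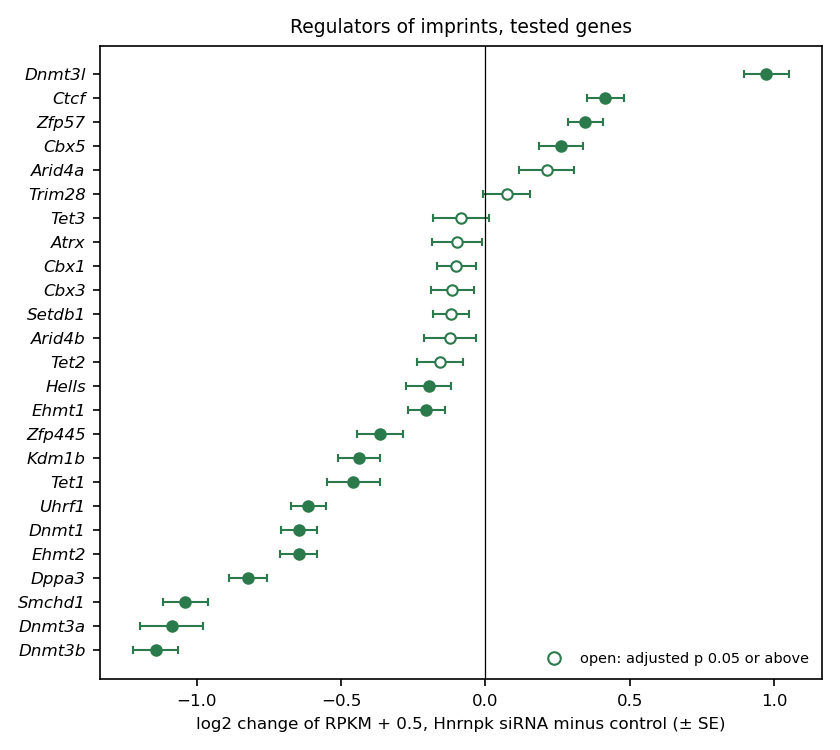
Change of the 25 tested genes of the list of imprint regulators on the log2(RPKM + 0.5) scale, Hnrnpk siRNA minus control siRNA, with bars for the SE from limma; open points were not called. Dnmt3b, Dnmt3a and Smchd1 lie below -1, Setdb1 and Trim28 near 0, and Dnmt3l at 0.97.

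A further list of 43 imprinted genes outside the set had 31 in the table and 17 tested, of which 8 rose and 6 fell (median log2 change 0.13). Of these 17 tested, 82.4% were called, beside 67.2% of all genes tested. By the naming rule, Atp10a, a phospholipid flippase gene near Ube3a whose imprinting in mouse is disputed, fell from 4.91 and 5.01 RPKM to 1.36 and 1.42 RPKM (log2 change -1.53, SE 0.0839, limma adjusted p = 6.30e-07). Copg2, the coatomer gene that overlaps Mest, fell from 22.4 and 20.4 RPKM to 12.1 and 11.2 RPKM (log2 change -0.85, limma adjusted p = 9.28e-06). Sfmbt2, a Polycomb-group gene of placenta, rose from 2.745 and 2.999 RPKM to 5.83 and 5.42 RPKM (log2 change 0.86, limma adjusted p = 1.94e-05). Cobl, next to Grb10 and Ddc, rose (log2 change 0.51, limma adjusted p = 1.71e-04), so that neighbourhood too held both directions. The same holds near Peg10, where Casd1 and Pon2 rose (log2 change 0.26 and 0.39, limma adjusted p = 0.0175 and 0.00499) and Pon3 was not called. Ascl2, between Th and Tspan32 on distal chromosome 7, rose (log2 change 0.30, limma adjusted p = 0.00655). Begain, beside Dlk1, fell (log2 change -0.50, limma adjusted p = 9.40e-04; -0.27 with GC trends removed), and so did Ampd3 (-0.67, limma adjusted p = 9.68e-04).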

How the data were processed

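The authors deposited gene-level RPKM values, each library in its own column, so replicates were not pooled. Per the submitters' processing notes, BWA, SAMtools and build mm9 were used; for the counting tool, annotation, strandedness and multiply matching reads nothing is stated (not given in the sources used here). Per the labels' protocols, total RNA was extracted and poly(A) RNA selected for paired-end sequencing, while the sample descriptions call it depleted of ribosomal RNA. RPKM is not a count, so no count model was used.

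Values were analysed as log2(RPKM + 0.5) with limma 3.58.1 under R 4.3.3, using its trended prior variance. Benjamini-Hochberg adjustment covered the 12486 genes whose mean reached 0.5 RPKM. On simulated data for these genes, 80% of changes of 0.5 and 100% of changes of 1 on the log2 scale were called, with 8 of 188 calls false. Only 200 genes were changed there, against 67.2% of genes called in the real data, and the noise was drawn from the spread limma had fitted. The simulation therefore does not give the false-call rate of the real calls. Positions are from GENCODE M21 (GRCm38) by identifier (20551 of 22138 matched), not from the authors' build. No member shared more than 4.34% of its longest transcript with genes elsewhere (BLAST 2.17.0, 95% identity). Replicates are called biological in the design text but may still be technical in part. The p-values therefore measure only the spread between these libraries, pooled across genes by limma.

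Named genes are Hnrnpk, all 40 members, fixed names and picks from the 2 lists of regulators and other imprinted genes. Those picks are the genes called at 2-fold or more and the 6 lowest adjusted p-values among the rest. Other genes were added after their values were seen: Ins2, Nap1l4, Zfp445, Ascl2, Casd1, Pon2, Pon3, Th, Tspan32, Tnfrsf23, the cell type markers and those only the closing section names. Members and lists were chosen with earlier results of these data known. Alternatives were another added value or filter, other scaling, GC trends removed, a replicate block and leaving out each library. Leaving out a library leaves a single library in its group. The p-values of those fits therefore do not measure the spread within that group, and calls gained or lost there are weak evidence.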

Additional observations from a re-analysis of the deposited data

How the results depend on the processing

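Across the 12 alternatives, the counts of imprinted genes called stayed within 1.5 times the reported ones: 10 to 15 higher and 11 to 15 lower, with 13 to 18 paternally and 7 to 11 maternally expressed genes called. The counts over all genes were 3155 to 4760 higher and 3552 to 4900 lower. Of the 27 called members, 20 were called in the same direction in every alternative that tested them, and 7 lost the call in at least 1. Of the 8 members not called, 6 were called in at least 1 alternative, so their missing calls do not show that they were unchanged. Ube3a reversed to -0.027 with GC trends removed; the cause was not tested. The median log2 change of the members was -0.0029 with GC trends removed, 0.049 under quantile normalization and 0.13 without Hnrnpk siRNA replicate 2. Leaving out 1 library in turn gave 10 to 14 members higher and 11 to 15 lower. In the fit with the replicate number as a block, 29 members were called, against 27 without it, with Igf2r and Sgce added. The labels do not say that a number marks a shared culture, and deviations of same-numbered libraries correlated at 0.027 across genes, so the pairing is by number only. Without the filter, Zim1, Asb4 and Kcnq1 were also called. Read counts were not used here, so the precision of genes below 1 RPKM rests on 2 libraries a group and on the spread that limma pools across genes.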

Other observations

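Several other imprinted genes were too low to test, and their values, picked after they were seen, are given without a test. Th, the tyrosine hydroxylase gene between Ins2 and Ascl2, was at 0.0118 and 0.0295 RPKM in control libraries and at 0.155 and 0.162 RPKM after Hnrnpk siRNA. Gpr1, a chemerin receptor gene beside Zdbf2, was at 0.141 and 0.107 against 0.321 and 0.376 RPKM. Tfpi2, a protease inhibitor gene of placenta near Peg10, was at 0.0474 and 0.00536 against 0.152 and 0.136 RPKM. For these 3 genes the Hnrnpk siRNA values were above the control values, with no overlap. Among all 22138 genes, 7331 had both Hnrnpk siRNA libraries above both controls. Of the 14 untested genes of this list, Kcnk9, Slc22a2, Slc22a3, Ins2, Klf14, Rasgrf1 and Htr2a had overlapping groups.

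Herc3, the host gene of Nap1l5, was also looked up after the values of Nap1l5 were seen. It fell from 2.78 and 2.25 RPKM to 1.01 and 0.910 RPKM (log2 change -1.04, SE 0.108, limma adjusted p = 2.39e-05). Nap1l5 and its host thus both fell, though the call of Nap1l5 was lost in 3 alternatives, whereas Nnat fell and its host Blcap rose.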
